A study of Mus musculus with 3 samples.

Results

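Hoxb1, Hoxd1, Hoxa2 and Hoxb2 belong to paralog groups 1 and 2 of the Hox family, the groups at the 3′ end of the Hox clusters, and their levels were read in single cells of mouse kidneys at E15.5 (embryonic day). They are 4 of the 39 protein-coding Hox symbols and of the 32285 genes in the count tables. They were taken as a list of symbols and had been selected on their measured values, since Hoxb1 and Hoxb2 were known to be higher in the library from embryos exposed to TDI-11055. The differences between libraries given here for these genes are therefore descriptions, and no test was run on them.

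Each of the 3 groups was 1 library made from pooled kidneys of several embryos, so that embryos could not be told apart and no spread between animals was available. Every embryo, the controls included, carried the Wt1 GFPCre allele, which inactivates 1 copy of Wt1 and drives Cre recombinase from the Wt1 promoter in the nephron and stroma lineages but not in the ureteric epithelium or the endothelium. The Enl-WT library came from Enl +/+; Wt1 GFPCre/+ embryos with no treatment by their title, and the Enl-T1 library from likewise untreated Enl flox-T1/+; Wt1 GFPCre/+ embryos, in which Cre switches 1 Enl allele to T1, a small in-frame insertion in the YEATS domain found in Wilms tumour, the commonest kidney tumour of childhood. The Enl-T1 TDI-11055 library came from Enl flox-T1/+; Wt1 GFPCre/+ embryos whose mothers were given 100 mg/kg of TDI-11055, an inhibitor that blocks binding of the ENL YEATS domain to acylated histones, by mouth every day from E10.5 to E14.5. The protocol speaks of a vehicle where the titles of the other libraries say no treatment. Reads at the 3′ ends of transcripts do not cover the insertion, so the Enl genotype of the cells was not checked.

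Hox genes encode homeodomain transcription factors that give cells their position along the body axis, and the 4 clusters Hoxa to Hoxd arose by duplication, so that genes of 1 paralog group in different clusters resemble each other more than they resemble their neighbours. Within a cluster the genes at the 3′ end are switched on earliest and furthest forward in the embryo, respond most directly to retinoic acid, and are held silent elsewhere by Polycomb complexes. Groups 1 and 2 are known for patterning the hindbrain and the neural crest. Hoxb1 sets the identity of a hindbrain segment and maintains its own transcription with Pbx and Meis cofactors, Hoxb2 lies downstream of it there, Hoxa2 specifies the second branchial arch, and Hoxd1 is known from sensory neurons. In the kidney the best known Hox genes are those of groups 9 to 11, which act in nephron progenitors and stroma.

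The upstream sequences of the genes are shown because Hoxb1 is known for a Pbx-Hox element through which it maintains its own transcription. On GRCm38 (GENCODE M21), Hoxb1 lay at chr11:96365752-96368256 and Hoxb2 at chr11:96350525-96354012, both on the plus strand with 11739 bases between them, Hoxd1 at chr2:74762980-74765142 on the plus strand, and Hoxa2 at chr6:52162417-52164831 on the minus strand. Each gene had 2 exons. The 250 bases before the RefSeq start (GRCm38.p6) matched for 3 of the 4 genes, and Hoxb2 had no entry. They are written 5′ to 3′ on the strand of the gene, for Hoxb1 chr11:96365508-96365757, for Hoxd1 chr2:74762730-74762979 and for Hoxa2 chr6:52164832-52165081, with matches to the Pbx-Hox motif TGATNNAT and the Meis motif TGACAG in capitals.
Hoxb1: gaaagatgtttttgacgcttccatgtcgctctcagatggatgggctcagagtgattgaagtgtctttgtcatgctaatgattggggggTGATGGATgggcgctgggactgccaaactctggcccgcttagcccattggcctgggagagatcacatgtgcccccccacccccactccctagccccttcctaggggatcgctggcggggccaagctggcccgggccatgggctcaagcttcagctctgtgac
Hoxd1: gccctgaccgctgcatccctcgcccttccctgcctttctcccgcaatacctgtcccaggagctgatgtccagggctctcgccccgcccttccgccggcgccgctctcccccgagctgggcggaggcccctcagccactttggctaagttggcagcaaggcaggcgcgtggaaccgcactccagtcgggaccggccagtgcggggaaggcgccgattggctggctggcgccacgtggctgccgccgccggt
Hoxa2: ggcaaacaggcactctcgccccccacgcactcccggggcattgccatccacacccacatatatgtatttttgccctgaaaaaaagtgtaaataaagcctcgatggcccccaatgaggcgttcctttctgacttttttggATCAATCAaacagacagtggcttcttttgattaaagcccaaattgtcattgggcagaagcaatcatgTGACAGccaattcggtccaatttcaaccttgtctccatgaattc
Both strands were searched for each motif, and no 2 of the capitalised matches overlapped. Hoxb1 held 1 Pbx-Hox match, which began at position -162 from the start, and Hoxa2 held 1 on the opposite strand, at -111, and 1 Meis match at -44. TGATNNAT was found in 7.68% and TGACAG in 15.9% of the 32851 promoters of the same length, and neither was found in the window of Hoxd1. AGGTCA, the half-site of nuclear receptors such as those for retinoic acid, occurred in 14.02% of all promoters and in none of the 3 windows. The GC content was 59.2% for Hoxb1, 71.6% for Hoxd1 and 46.4% for Hoxa2.

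Barcodes counted as cells when 1000 to 6000 genes were detected and no more than 10% of their UMIs (unique molecular identifiers, each 1 counted transcript molecule) were mitochondrial, which gave 5233 cells for Enl-WT, 4144 for Enl-T1, 2754 for Enl-T1 TDI-11055. Where 3 values stand in a row below, they follow that order of the libraries. Their median depth was 5090, 9391 and 16931.5 UMIs per cell, and between 5 and 8 kept barcodes were shared by any pair of libraries. Cells fell into nephron, stroma, ureteric epithelium and endothelial lineages, and classes within them are called X-like from their markers. NP1-like clusters were named from 6 markers of uncommitted nephron progenitors such as Cited1 and Crym, and NP2-like cells from those of induced progenitors. All 6 were detected in each NP1-like cluster. In the one led by Rspo3 and Cited1, 3 of them were among the 10 leading genes. In those led by Hist1h2bc, Rrm2 and Ube2c, 0 were, so most of the class rests on detection of the markers. Levels are in CPM, the UMIs of a gene per 1000000 UMIs of all genes in the cells summed, with exact 95% Poisson intervals, and ratios between libraries carry exact 95% intervals from the split of the counts. All these intervals cover counting error only and say nothing of differences between embryos. The libraries also differed in composition: the median share of ribosomal protein UMIs was 15.46%, 25.3% and 26.2% per cell, cells with female transcripts made up 26.5%, 73.3% and 35.1%, and the median log2 ratio of all genes between Enl-T1 and Enl-WT was -0.41 in nephron, -0.30 in stroma and -0.30 in ureteric epithelium, against 0.01 to 0.02 for Enl-T1 TDI-11055 relative to Enl-T1. The part of these differences in the results below was not tested.

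Hoxb1 was almost silent in the kidney of the Enl-WT library and was highest in the nephron lineage of the Enl-T1 TDI-11055 library, mainly in its NP1-like cells. In nephron cells it reached 0.867 CPM (0.448 to 1.51; 12 UMIs in 2218 cells) in Enl-WT, 6.13 CPM (4.92 to 7.55; 88 UMIs in 1302 cells) in Enl-T1 and 38.3 CPM (35.5 to 41.2; 727 UMIs in 1340 cells) in Enl-T1 TDI-11055. The 3 intervals did not overlap, and each library stood above the one before. The ratio was 7.07 (3.85 to 14.2) for Enl-T1 over Enl-WT, 6.24 (5.00 to 7.88) for Enl-T1 TDI-11055 relative to Enl-T1, and 44.1 (25.1 to 85.8) for Enl-T1 TDI-11055 over Enl-WT. The first and second of these comparisons share the Enl-T1 library and are not independent of each other.

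**Figure D1:**
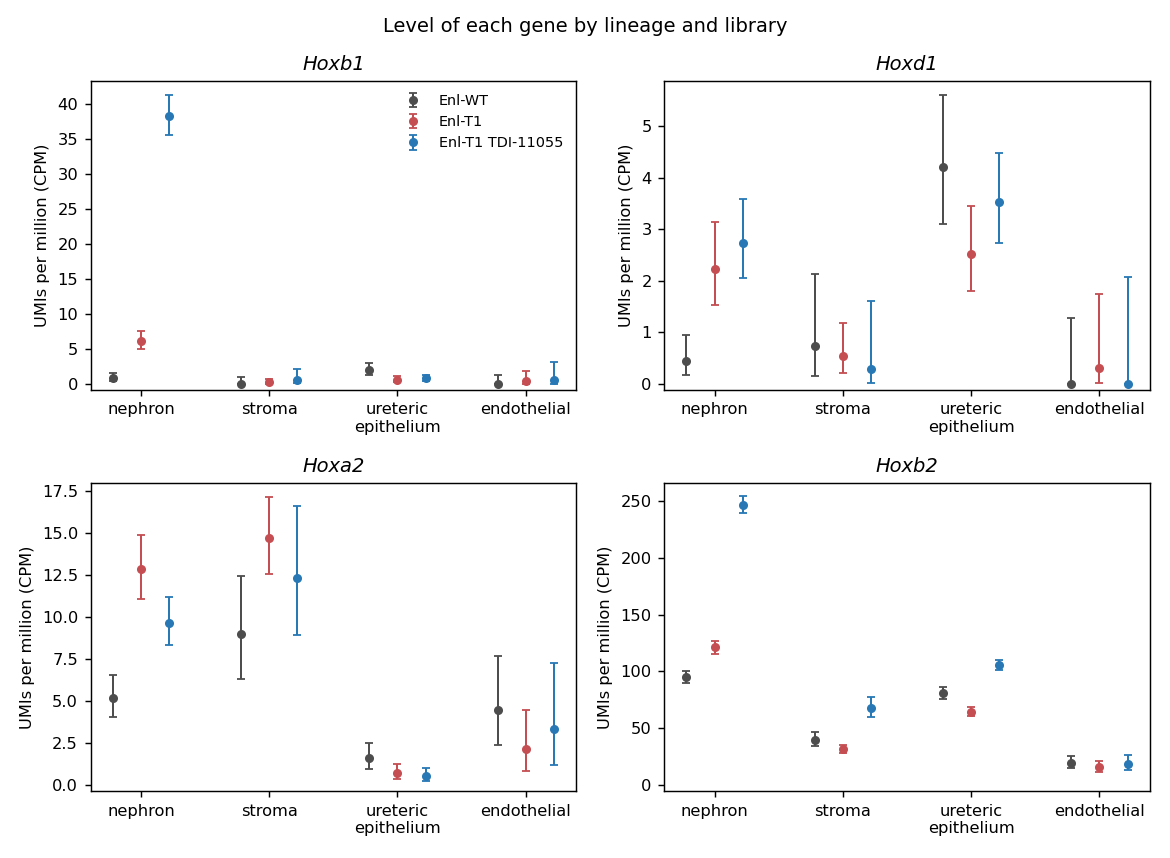
Level of the 4 genes (CPM; linear axes that differ between panels) in the 4 lineages, with 1 point per library and exact 95% Poisson intervals. Hoxb1 stands at 38.3 CPM in nephron cells of the Enl-T1 TDI-11055 library and below 3 CPM in the other lineages of every library, while Hoxb2 is present in all lineages and lowest in endothelial cells.

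Outside the nephron lineage Hoxb1 stayed near 0 in all 3 libraries. Stroma held 0, 2 and 2 UMIs in the 3 libraries, where the count of 0 allows up to 0.732 CPM, and endothelial cells held 0, 1 and 1 UMIs, where it allows up to 1.04 CPM. The Wt1 GFPCre allele is known to act in stroma as well as in the nephron. Ureteric epithelium, which lacks the Cre, held 22, 9 and 15 UMIs, or 1.97 CPM (1.24 to 2.98), 0.582 CPM (0.266 to 1.11) and 0.790 CPM (0.442 to 1.30). There Enl-WT was the highest library, and Enl-T1 over Enl-WT was 0.295 (0.120 to 0.668), which lies below the shift of all genes in that lineage. The interval of Enl-T1 TDI-11055 relative to Enl-T1 in ureteric epithelium, 1.36 (0.556 to 3.51), included 1. The nephron lineage held 35.3%, 88% and 97.6% of all Hoxb1 UMIs of the 3 libraries, and ureteric epithelium 64.7%, 9% and 2.01%.

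Within the nephron, NP1-like cells carried most Hoxb1 UMIs in the Enl-T1 and Enl-T1 TDI-11055 libraries, and 6 of 12 in Enl-WT. They had 1.26 CPM (0.463 to 2.75; 6 UMIs) in Enl-WT, 7.36 CPM (5.72 to 9.31; 69 UMIs) in Enl-T1 and 55.0 CPM (51.0 to 59.4; 670 UMIs) in Enl-T1 TDI-11055, and they contributed 17.6%, 69% and 89.9% of the Hoxb1 UMIs of their library while making up 16.3%, 18.7% and 26.5% of its cells. The ratio in this class was 5.83 (2.54 to 16.4) for Enl-T1 over Enl-WT and 7.48 (5.83 to 9.73) for Enl-T1 TDI-11055 relative to Enl-T1, close to those of the whole lineage. Each of the 4 clusters that made up the class had a higher level in Enl-T1 TDI-11055 than in Enl-T1, with ratios of 5.45 (3.64 to 8.48) in the cluster led by Rspo3 and Cited1, 8.76 (4.96 to 16.9) in that led by Hist1h2bc and C1qtnf12, and 5.37 (3.44 to 8.75) and 14.7 (6.83 to 37.6) in those led by the cell cycle genes Rrm2 and Ube2c.

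In the Enl-T1 TDI-11055 library, the classes further along the nephron lineage had less Hoxb1 than NP1-like cells. NP2-like cells had 1.30, 5.73 and 11.4 CPM (2, 4 and 19 UMIs), and distal tubule/loop of Henle-like cells 1.06, 5.84 and 7.92 CPM (4, 8 and 26 UMIs). For Enl-T1 TDI-11055 relative to Enl-T1 the ratio was 2.00 (0.664 to 8.08) in the former and 1.36 (0.597 to 3.47) in the latter, so that a change with TDI-11055 was not detectable at this depth in either class. Proximal tubule-like cells had 0 UMIs in 280 Enl-WT cells, 1 in 32 Enl-T1 cells and 9 in 78 Enl-T1 TDI-11055 cells (9.74 CPM, 4.45 to 18.5).

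Named classes of at least 50 cells were put in order of level. Unnamed classes were left out, among them 371 Enl-WT cells of ureteric epithelium led by Sprr2f and Fxyd4. In the Enl-WT library 2 ureteric classes came first, ureteric trunk/collecting duct-like at 2.52 CPM and ureteric tip-like at 2.51 CPM. Urothelium-like cells, also ureteric, had 0 UMIs. No neighbours in that order were apart beyond their counting intervals. NP1-like, distal tubule/loop of Henle-like and NP2-like cells led in Enl-T1, again with no neighbours apart. In Enl-T1 TDI-11055 the NP1-like cells stood apart from the next class, NP2-like cells, by 4.81-fold (3.05 to 8.04), and distal tubule/loop of Henle-like cells stood apart from the next class, Foxd1 stroma-like cells, by 9.23-fold (2.31 to 80.2).

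**Figure D2:**
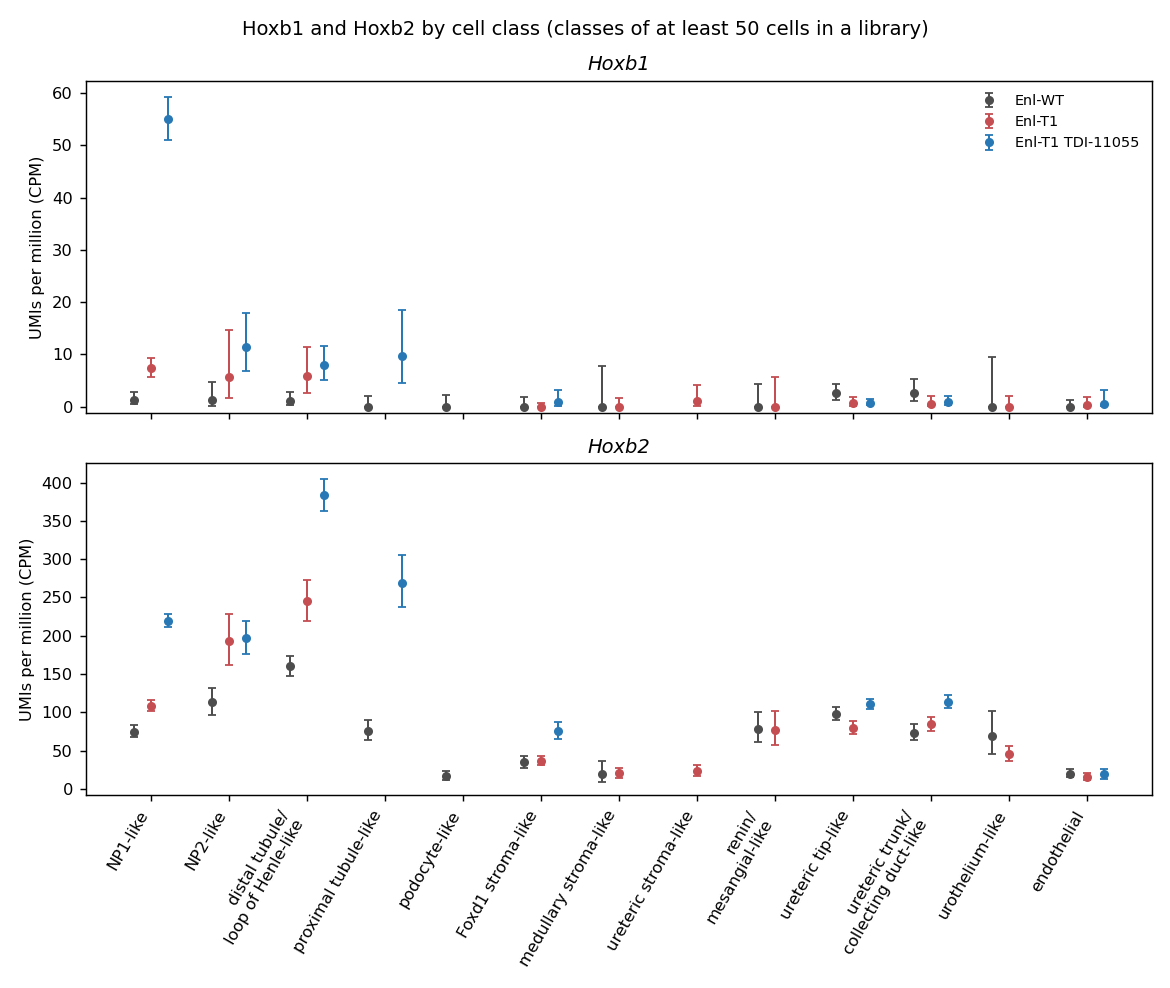
Hoxb1 (upper) and Hoxb2 (lower) in CPM (linear axis) by cell class, with 1 point per library for classes of at least 50 cells and exact 95% Poisson intervals. For Hoxb1 the point of NP1-like cells of the Enl-T1 TDI-11055 library at 55.0 CPM stands above all others, while for Hoxb2 distal tubule/loop of Henle-like cells are highest in each library.

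The number of nephron cells in which Hoxb1 was seen moved with its level. A Hoxb1 UMI was present in 0.541% of Enl-WT, 5.61% of Enl-T1, and 24.9% of nephron cells with TDI-11055, but these libraries differed in depth, with medians of 5307, 10259.5 and 13302.5 UMIs per nephron cell. After thinning each cell to 2000 UMIs, which left out 36, 7 and 8 shallower cells, the shares were 0.229% (0.0744 to 0.534), 1.62% (1.01 to 2.47) and 5.71% (4.52 to 7.09). The order of the libraries was the same at equal depth, and the intervals did not overlap. In endothelial cells, which served as the measure of free RNA, the thinned share was 0% in each library, with upper bounds of 0.956%, 1.43% and 3.13%, at median depths of 5664, 10456 and 14335.5 UMIs before thinning. In Enl-T1 TDI-11055 the bound lies below the nephron interval, whereas in Enl-T1 it falls inside that interval and in Enl-WT it lies above it, so that at equal depth the share of nephron cells stood above this measure of free RNA in the Enl-T1 TDI-11055 library only. At full counts the nephron interval in Enl-T1, 4.92 to 7.55 CPM, also lay above the endothelial one, 0.00792 to 1.74 CPM.

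No nephron cell of the Enl-WT library had more than 1 Hoxb1 UMI, the highest count was 4 in Enl-T1, and it was 11 in Enl-T1 TDI-11055, where 22 cells had 6 or more. Most nephron cells of that library had none. At equal depth, Hoxb2 was seen in 21.1% (12.5 to 31.9) of the 76 cells with a Hoxb1 UMI in the nephron of the Enl-T1 TDI-11055 library. It was seen in 35.0% (32.3 to 37.7) of the other 1256, and the former interval ended just below the latter. The cells were not matched for class. NP1-like cells held 670 of the 727 Hoxb1 UMIs there and had 220 CPM of Hoxb2. Distal tubule/loop of Henle-like, proximal tubule-like and NP2-like cells had 383, 269 and 197 CPM of Hoxb2. The part of this class mix was not tested. Cells with female and male transcripts had 43.8 CPM (39.1 to 48.9) and 40.0 CPM (35.6 to 44.7) of Hoxb1 in the Enl-T1 TDI-11055 nephron, and 5.84 and 5.04 CPM in the Enl-T1 nephron, with overlapping intervals in both. On the log2 scale the ratio of Enl-T1 TDI-11055 relative to Enl-T1 in the nephron, 2.64, became 2.04 when the cells were thinned and 2.02 when every library was given the Enl-WT mix of nephron classes.

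**Figure D3:**
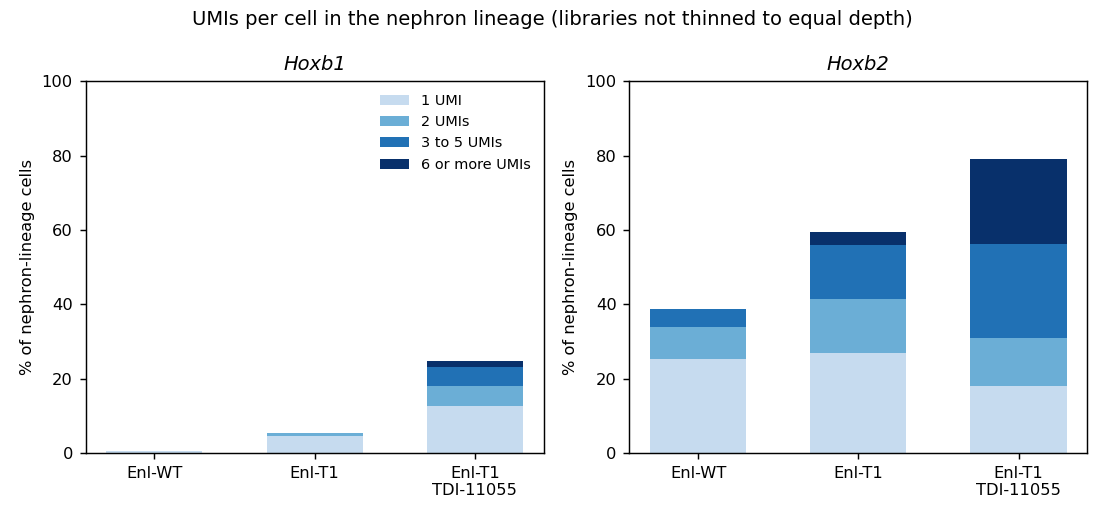
Share of nephron-lineage cells (%, axis from 0 to 100) with 1, 2, 3 to 5, or 6 or more UMIs of Hoxb1 (left) and Hoxb2 (right) in each library, at the depth sequenced. Cells with a Hoxb1 UMI make up 0.541%, 5.61% and 24.9% and cells with a Hoxb2 UMI 38.8%, 59.4% and 79.0% of the nephron, with the libraries ordered from Enl-WT to Enl-T1 TDI-11055.

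Hoxb2 was present in all lineages of all libraries and was higher in the Enl-T1 TDI-11055 library in nephron, stroma and ureteric epithelium. In the nephron it reached 94.97 CPM (89.9 to 100.2) in Enl-WT, 121 CPM (115 to 127) in Enl-T1 and 246 CPM (239 to 254) with TDI-11055, from 1314, 1738 and 4682 UMIs. The libraries did not overlap, with a ratio of 1.27 (1.19 to 1.37) for Enl-T1 over Enl-WT and 2.04 (1.93 to 2.15) for Enl-T1 TDI-11055 relative to Enl-T1. In stroma the 3 levels were 40.2, 31.5 and 68.3 CPM, and in ureteric epithelium 81.2, 64.7 and 106 CPM. In both, Enl-T1 was the lowest and Enl-T1 TDI-11055 the highest library, with ratios for Enl-T1 TDI-11055 relative to Enl-T1 of 2.17 (1.83 to 2.56) in stroma and 1.63 (1.51 to 1.76) in ureteric epithelium. Endothelial cells had 20.1, 16.0 and 19.0 CPM, and their ratio of 1.19 (0.749 to 1.88) included 1. For Enl-T1 over Enl-WT the ratios of 0.784 (0.649 to 0.949) in stroma and 0.797 (0.728 to 0.873) in ureteric epithelium lay close to the shift of all genes in the same lineage, at -0.05 and -0.03 on the log2 scale relative to it, whereas the nephron stood 0.76 above it.

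Across the named classes of at least 50 cells, Hoxb2 was highest in distal tubule/loop of Henle-like cells in each library, at 161 CPM (148 to 174), 245 CPM (220 to 273) and 383 CPM (363 to 405). These cells stood apart from the next class by 1.42-fold (1.20 to 1.69), 1.27-fold (1.03 to 1.56) and 1.42-fold (1.24 to 1.64). The ratio of Enl-T1 TDI-11055 to Enl-T1 varied from class to class. NP1-like cells had 74.9, 109 and 220 CPM, with a ratio of 2.02 (1.88 to 2.17) for that comparison, and Foxd1 stroma-like cells, which hold the cortical stromal progenitors, 34.5, 37.0 and 75.5 CPM, with a ratio of 2.04 (1.65 to 2.53). Distal tubule/loop of Henle-like cells followed with 1.56 (1.39 to 1.77), and the ureteric tip-like and trunk/collecting duct-like classes with 1.40 (1.24 to 1.58) and 1.35 (1.17 to 1.55). NP2-like cells had 113, 193 and 197 CPM, and their ratio of 1.02 (0.831 to 1.25) included 1. Podocyte-like cells, the filtering cells of the glomerulus, had 16.5 CPM (10.96 to 23.8) in 228 Enl-WT cells, 146 CPM in 46 Enl-T1 cells and 196 CPM in 30 Enl-T1 TDI-11055 cells, and the last 2 values rest on few cells.

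In the thinned cells, Hoxb2 was found in 16.2% (14.7 to 17.8), 18.4% (16.3 to 20.6) and 34.2% (31.6 to 36.8) of nephron cells. The first 2 intervals overlapped and the third lay above both. The shares of endothelial cells were 3.65%, 4.28% and 5.17%, below those of nephron cells in the same library. As many as 304 Enl-T1 TDI-11055 nephron cells had 6 or more Hoxb2 UMIs, against 45 in Enl-T1 and 2 in Enl-WT, before thinning. Hoxb3os, an antisense transcript, overlaps Hoxb2 on the opposite strand, and whether counting used the strand was not given in the sources used here, so that reads of the 2 genes may not be separated.

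Hoxd1, the other member of paralog group 1, was low throughout and had its highest level by lineage in ureteric epithelium. Ureteric cells had 4.21 CPM (3.09 to 5.60; 47 UMIs) in Enl-WT, 2.52 CPM (1.79 to 3.45; 39 UMIs) in Enl-T1 and 3.53 CPM (2.73 to 4.48; 67 UMIs) in Enl-T1 TDI-11055, and the intervals of the libraries overlapped. The ratio was 0.599 (0.382 to 0.936) for Enl-T1 over Enl-WT and 1.40 (0.928 to 2.13) for Enl-T1 TDI-11055 relative to Enl-T1. In nephron cells Hoxd1 had 6, 32 and 52 UMIs, or 0.434 CPM (0.159 to 0.944), 2.23 CPM (1.52 to 3.15) and 2.74 CPM (2.04 to 3.59). Enl-WT stood below both other libraries, which overlapped: the ratio was 5.14 (2.12 to 15.0) for Enl-T1 over Enl-WT and 1.23 (0.776 to 1.97) for Enl-T1 TDI-11055 relative to Enl-T1. The latter, 0.30 on the log2 scale, turned to -0.46 when every library was given the Enl-WT mix of nephron classes. At equal depth a Hoxd1 UMI was left in 0.0458%, 0.232% and 0.300% of nephron cells and in 0%, 0.389% and 0% of endothelial cells, with intervals that overlapped in each library. At full counts, Hoxd1 in endothelial cells was at 0 CPM (0 to 1.28), 0.313 CPM (0.00792 to 1.74) and 0 CPM (0 to 2.06), intervals that overlapped those of nephron cells in all 3 libraries. Distal tubule/loop of Henle-like cells were the nephron class with most Hoxd1, at 1.33, 10.2 and 7.31 CPM (5, 14 and 24 UMIs), and in Enl-T1 and Enl-T1 TDI-11055 they led the order of classes, with no neighbours apart. Stroma had 3, 6 and 1 UMIs and endothelial cells 0, 1 and 0.

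Hoxa2 had its highest values in stroma and was lower, not higher, in the nephron of the Enl-T1 TDI-11055 library than in that of Enl-T1. In nephron cells it had 5.20 CPM (4.07 to 6.55; 72 UMIs) in Enl-WT, 12.9 CPM (11.1 to 14.9; 185 UMIs) in Enl-T1 and 9.69 CPM (8.34 to 11.2; 184 UMIs) in Enl-T1 TDI-11055. Enl-WT lay below both other libraries, whose intervals overlapped at their edges. The ratio was 2.48 (1.88 to 3.30) for Enl-T1 over Enl-WT and 0.752 (0.610 to 0.927) for Enl-T1 TDI-11055 relative to Enl-T1. The latter, -0.41 on the log2 scale, became -1.13 in thinned cells. In stroma the levels were 9.02, 14.7 and 12.3 CPM (37, 163 and 43 UMIs), each with an interval that overlapped that of nephron cells, and the ratios were 1.63 (1.14 to 2.40) and 0.838 (0.584 to 1.18) for the same 2 comparisons, of which only the former excluded 1. Ureteric epithelium had 1.61, 0.712 and 0.579 CPM from 18, 11 and 11 UMIs, and endothelial cells 4.495, 2.19 and 3.35 CPM from 13, 7 and 6 UMIs.

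Among the named classes of at least 50 cells, Foxd1 stroma-like cells had most Hoxa2 in each library, at 11.3, 20.7 and 13.7 CPM. They were not apart from the next class in any library. NP1-like cells had 6.102, 13.1 and 9.53 CPM, with a ratio of 0.727 (0.559 to 0.944) for Enl-T1 TDI-11055 relative to Enl-T1. Distal tubule/loop of Henle-like cells went the other way, at 4.78, 5.11 and 12.8 CPM (18, 7 and 42 UMIs) with a ratio of 2.51 (1.12 to 6.61), so that the lower level in Enl-T1 TDI-11055 was not common to all nephron classes. At equal depth a Hoxa2 UMI was seen in 0.962%, 2.39% and 1.13% of nephron cells and in 0.781%, 0.389% and 0.862% of endothelial cells, and the intervals of the 2 lineages overlapped in all 3 libraries. At full counts the interval of nephron cells lay above that of endothelial cells in Enl-T1 (0.880 to 4.51 CPM in the latter) and in Enl-T1 TDI-11055 (1.23 to 7.30 CPM), and the 2 overlapped in Enl-WT. Hoxa2 shares its locus with Gm28308, a read-through model on the same strand.

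The genes were set beside all others through the number with a CPM ratio of at least 1.5 among those with a mean of at least 5 CPM over the 3 libraries. For Enl-T1 over Enl-WT, 5.66% of 10430 genes were higher in nephron, 6.89% in stroma and 5.75% in ureteric epithelium, and of these genes 2 of the 3 that passed the filter in nephron (Hoxb1 and Hoxa2), 1 of 2 in stroma (Hoxa2) and 0 of 1 in ureteric epithelium were among them. For Enl-T1 TDI-11055 relative to Enl-T1, 7.34% were higher in nephron, 10.9% in stroma and 7.74% in ureteric epithelium, and the genes among them were Hoxb1 and Hoxb2 in nephron, Hoxb2 in stroma and Hoxb2 in ureteric epithelium. Of the genes that passed the filter, 0 were lower by 1.5-fold in either comparison. Nothing is read from these counts, since the genes were selected on the same comparison. Hoxb1 passed the filter in nephron only through the Enl-T1 TDI-11055 library, its mean being 15.1 CPM with that library and 3.50 CPM without it, and Hoxd1 stayed under the filter everywhere, at 1.80 CPM in nephron. The split of genes past 1.5-fold in either direction depended on the scaling for Enl-T1 over Enl-WT: genes higher in Enl-T1 made up 12.9%, 19.1% and 17.6% of them in nephron, stroma and ureteric epithelium by CPM, and 46.8%, 53.4% and 56.2% with median-of-ratios scaling.

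No other Hox gene above 5 CPM in the nephron was higher with TDI-11055 by 1.5-fold. Hoxb1 and Hoxb2 were, but they had been selected for that rise, so nothing is read from the contrast. Hoxb1 passed the filter only through that library, at 15.1 CPM with it and 3.50 CPM without it. In stroma, 2 of 29 Hox genes of groups 3 to 13 were also higher, Hoxa9 (1.75) and Hoxa7 (1.65), and 9 were lower. Of the 34 Hox genes of groups 3 to 13, 29 had a mean of at least 5 CPM there, and for Enl-T1 over Enl-WT 20 of these were higher and 1, Hoxb8, was lower by 1.5-fold (0.545), with a median log2 ratio of 1.37 against -0.41 for all genes. For Enl-T1 TDI-11055 relative to Enl-T1, 0 were higher and 13 were lower, with a median of -0.38 against 0.01 for all genes. Among all 10430 genes tested in nephron, 590 were higher and 3983 lower by 1.5-fold in the former comparison. In the latter, 766 were higher and 767 lower. The neighbours in paralog group 3 were at 123, 152 and 137 CPM for Hoxb3, at 16.3, 82.4 and 55.5 CPM for Hoxa3, and at 12.6, 32.8 and 12.5 CPM for Hoxd3. Their ratios for Enl-T1 TDI-11055 relative to Enl-T1 were 0.898, 0.674 and 0.382, all below 1. By cluster, the 9 Hoxa genes above 5 CPM, Hoxa2 among them, were all higher in Enl-T1 relative to Enl-WT by 1.5-fold, from 2.06-fold for Hoxa7 to 5.07-fold for Hoxa3. Of the 9 Hoxb genes above it, Hoxb1 and Hoxb9 were higher and Hoxb8 was lower.

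**Figure D4:**
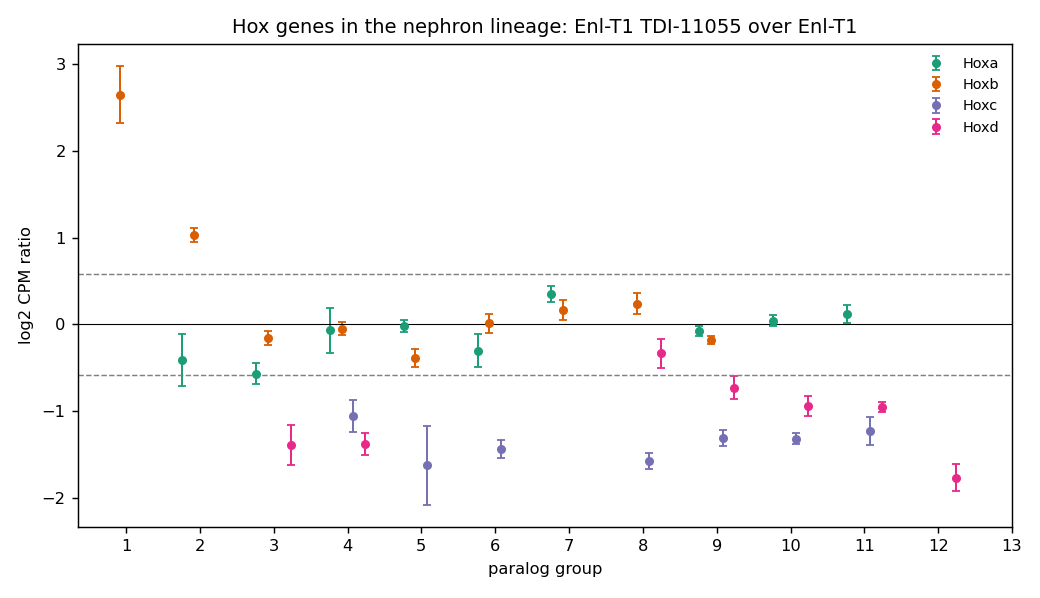
Log2 CPM ratio of Enl-T1 TDI-11055 relative to Enl-T1 in the nephron lineage for each Hox gene with a mean of at least 5 CPM, by paralog group and coloured by cluster, with exact 95% intervals from the counts; dashed lines mark 1.5-fold. Hoxb1 in group 1 (2.64) and Hoxb2 in group 2 (1.03) are the points above the upper dashed line, and the Hoxc and most Hoxd genes lie below the lower one. Hoxb1 and Hoxb2 had been selected for their higher level in the Enl-T1 TDI-11055 library.

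The genes near Hoxb1 on chromosome 11 were also described, and the rest of the chromosome was not examined by position. Within 300 kb of Hoxb1, a window chosen after the values were seen, 20 genes were annotated and 14 had at least 5 CPM in the nephron. Of these 14, Hoxb3os, Hoxb2, Hoxb1 and Skap1 were higher by 1.5-fold in Enl-T1 TDI-11055 than in Enl-T1. Over all genes tested in nephron, 7.34% were higher by that fold. Hoxb1 and Hoxb2 had been selected for their higher level in that library. Hoxb1 passed the 5 CPM filter only through it, at a mean of 15.1 CPM with and 3.50 CPM without it. Nothing is therefore read from this count. Hoxb3os had 21.5, 20.5 and 36.1 CPM in the 3 libraries, with a ratio of 1.76 (1.53 to 2.02). Skap1, which encodes an adaptor protein of T cell receptor signalling, had 20.8, 30.2 and 83.4 CPM, with a ratio of 2.77 (2.49 to 3.08). It is the next protein-coding gene past the 3′ end of the Hoxb cluster (chr11:96464593-96759130, 96336 bases past Hoxb1). In contrast, Hoxb3 to Hoxb9 lay between 0.766 (Hoxb5) and 1.18 (Hoxb8). By lineage, Hoxb3os (1.70, 1.12 to 2.56) and Hoxb2 were higher in stroma. In ureteric epithelium Hoxb2 alone was higher, with Skap1 at 1.03 (0.838 to 1.28), and in endothelial cells 0 of 12 genes were. Over all genes tested, 10.9% were higher in stroma and 7.74% in ureteric epithelium. In distal tubule/loop of Henle-like cells the genes higher were Hoxb2 and Hoxb6 (1.57, 1.27 to 1.96), which lies further inside the cluster, while Hoxb3os stood at 1.23 (0.926 to 1.65) and Skap1 at 1.39 (1.00 to 1.96).

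**Figure D5:**
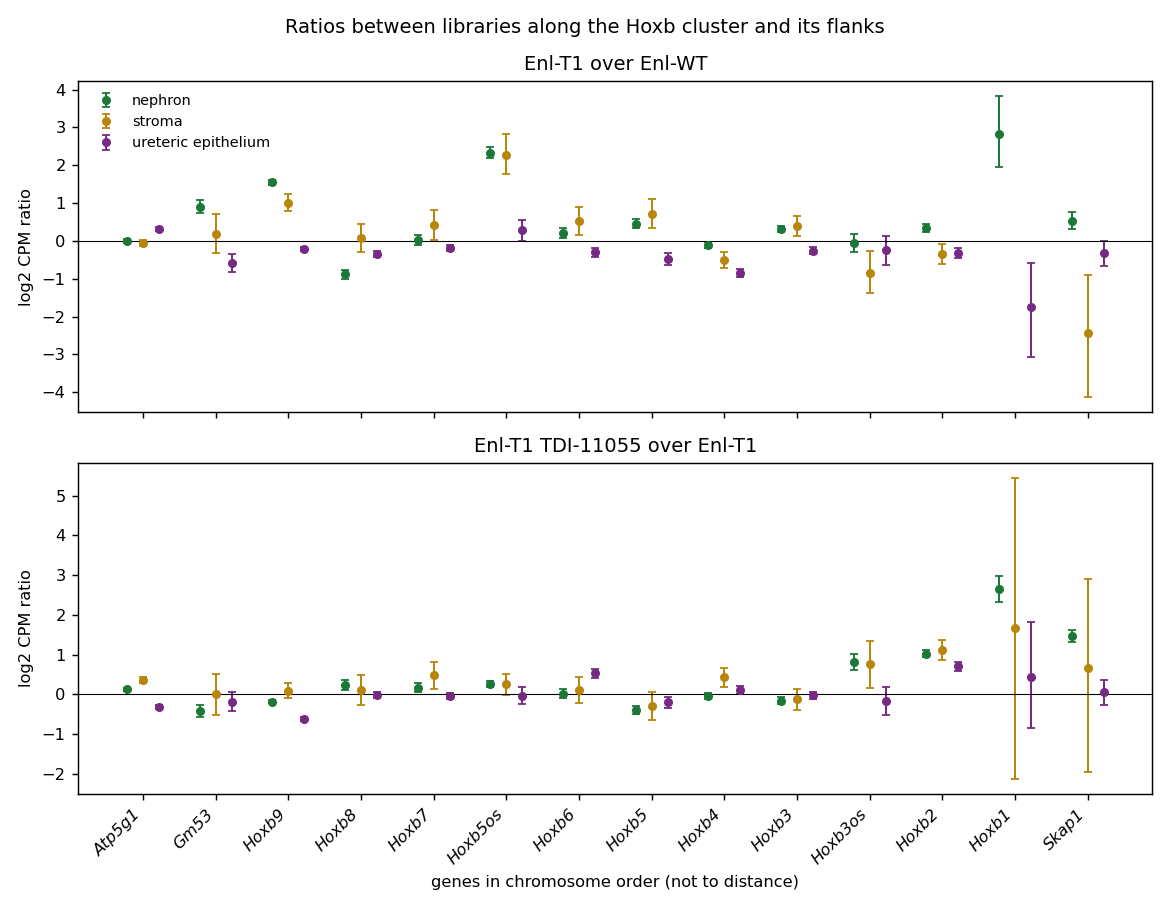
Log2 CPM ratios of Enl-T1 over Enl-WT (upper) and of Enl-T1 TDI-11055 relative to Enl-T1 (lower) for the genes around Hoxb1 with at least 5 CPM in the nephron, in chromosome order, in nephron, stroma and ureteric epithelium, with exact 95% intervals from the counts. In the lower panel the nephron points of Hoxb3os, Hoxb2, Hoxb1 and Skap1 lie at log2 ratios above 0.8, while the nephron points from Hoxb9 to Hoxb3 lie within 1.5-fold.

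The genes that make, carry and read retinoic acid, the best known inducer of groups 1 and 2, were described in the nephron from a list. Over all 10430 genes tested there, 3983 were lower and 590 higher by 1.5-fold in Enl-T1 relative to Enl-WT. In Enl-T1 TDI-11055 relative to Enl-T1, 767 were lower and 766 higher. With median-of-ratios scaling the first number was 1771, so that counts of lower genes for that comparison depend on the scaling. Of 13 genes for vitamin A handling, 8 had at least 5 CPM, and for Enl-T1 over Enl-WT 4 of them were higher and 1 was lower by 1.5-fold. Crabp1, a cytosolic binding protein of retinoic acid, had 9.97, 50.8 and 16.8 CPM, and Rdh10, which makes retinal from retinol, 59.1, 117 and 70.0 CPM. Both were highest in Enl-T1, unlike Hoxb1 and Hoxb2. For Enl-T1 TDI-11055 relative to Enl-T1, 1 of the 8 was higher, Aldh1a3, an enzyme that makes retinoic acid from retinal, at 1.70, and 3 were lower, Crabp1 at 0.331 the most. Of the 6 retinoic acid receptor genes, 4 had at least 5 CPM, and 0 passed 1.5-fold in either direction in either comparison. Vitamin A handling differed in the other lineages for Enl-T1 TDI-11055 relative to Enl-T1. In stroma 0 of 8 genes above 5 CPM were lower and 3 were higher, Aldh1a2 the most, at 410, 152 and 475 CPM. Of all 10438 genes tested there, 1134 were higher and 1317 lower. In ureteric epithelium 4 of 8 were higher and 0 lower, against 809 higher and 1026 lower of 10458. Any part in the Hox levels was not tested.

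Of 9 genes for the TALE homeodomain cofactors with which Hox proteins bind DNA, 8 had at least 5 CPM. Pbx4 was higher in Enl-T1 TDI-11055 than in Enl-T1 (2.51; 4.41, 3.27 and 8.21 CPM in the 3 libraries) and Meis1 was lower (0.489; 55.1, 76.1 and 37.2 CPM), and for Enl-T1 over Enl-WT Meis2 was higher (1.83) and Pbx2 lower (0.640). Egr2, a hindbrain factor known to act upstream of group 1 and 2 genes, had 7.81, 10.1 and 6.90 CPM, with ratios of 1.29 (1.00 to 1.68) for Enl-T1 over Enl-WT and 0.683 (0.535 to 0.871) for Enl-T1 TDI-11055 relative to Enl-T1. Of 11 Polycomb and H3K27 demethylase genes, 10 had at least 5 CPM. For Enl-T1 over Enl-WT, 0 were higher and 3 lower, with a median log2 ratio of -0.40 against -0.41 for all genes. For Enl-T1 TDI-11055 relative to Enl-T1, 0 were higher and 1 lower (Ezh1, 0.636). Over all 10430 genes tested, 590 were higher and 3983 lower by CPM in the former comparison, and 766 higher and 767 lower in the latter. Of the 9 genes for ENL and its partners, all above 5 CPM, 0 were higher and 7 lower by CPM in the former comparison, with a median log2 ratio of -0.66 against -0.41 for all genes, and 0 were higher and 2 lower in the latter (Aff1, 0.528, and Kmt2a, 0.6499).

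The genes most like each of the 4 were found by Pearson correlation of log2(CPM + 1) over 39 sums of a cell class in a library, which share libraries, depth and lineage and are therefore a description without a test. For Hoxb1, Hoxb5os (0.78), an antisense transcript in the same cluster, and Skap1 (0.76) came first, followed by Eef1e1, Prdx2 and Ssbp1 (0.76 to 0.75). For Hoxb2 they were Eef1e1 (0.86), D030056L22Rik, Apex1, Tnfaip6 and Fkbp4 (0.84 to 0.83). For Hoxd1 Blnk came first (0.78), followed by Nudt10, Wfdc2, Tfap2b and Aldh1a3 (0.76 to 0.72). For Hoxa2 they were Hoxa6 (0.81), another gene of the Hoxa cluster, then Nr2f1, Nr2f2, A830082K12Rik and Dpysl4 (0.80 to 0.76).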

How the data were processed

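Single-cell RNA-seq counts of whole mouse kidneys were used as the authors deposited them: whole-number UMI counts per gene and barcode, 1 matrix per library, made by the authors with 10x 3′ chemistry and Cell Ranger 6.1.2 on mm10 and not normalized. Strand handling in counting was not given in the sources used here. Cells had 1000 to 6000 genes and at most 10% mitochondrial UMIs. Libraries were integrated and clustered with Seurat 5.3.0 in R 4.3.3 without 172 genes (Hox, mitochondrial, ribosomal, haemoglobin and sex genes), with 30 components and a resolution of 0.5, and nephron and stroma again with 20 and 0.8. No doublets were removed; as an alternative, the barcodes with the highest Scrublet scores were, at 0.8% per 1000 barcodes, since its own threshold called 164, 3 and 4. The 4 genes and all lists were chosen with earlier results of these data known. UMIs were summed per class and library, and ratios of CPM got exact count intervals (scipy 1.17.1), whose code was checked on simulated data. With 1 library per group there was no test. Named were the 4 genes, their Hox relatives, list genes with at least 5 CPM and the 5 most similar genes. A result of 1 list is not reported here.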

Additional observations from a re-analysis of the deposited data

Results flagged for a closer look

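Several genes had CPM ratios above 1 in 1 lineage and below 1 in another between the same 2 libraries, Enl-T1 and Enl-WT. The difference between lineages was not tested, since each group is 1 library. Hoxb1 had a ratio of 7.07 in nephron and 0.295 in ureteric epithelium, and Hoxd1 of 5.14 and 0.599 (0.382 to 0.936). For Hoxa2 the ratio was 2.48 in nephron and 1.63 in stroma, against 0.441 (0.188 to 0.987) in ureteric epithelium, from 18 Enl-WT and 11 Enl-T1 UMIs. The median log2 ratio of all genes in ureteric epithelium, -0.30, lies inside the intervals of Hoxd1 and Hoxa2 there. For Hoxb2 it was 1.27 in nephron, against 0.784 in stroma and 0.797 in ureteric epithelium, and the last 2 are close to the shift of all genes in those lineages.

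Barcodes left out by the cell filter also held signal. In the Enl-T1 TDI-11055 library, Hoxb1 reached 9.99 CPM in the 577 barcodes with over 6000 genes (Enl-WT 1.16 CPM, Enl-T1 0.434 CPM) and 9.42 CPM in the 171 with at least 1000 genes and over 10% mitochondrial UMIs (Enl-WT 0.938 CPM, Enl-T1 1.31 CPM). Hoxb2 reached 138 CPM in the former (Enl-WT 53.8 CPM, Enl-T1 63.9 CPM) and 130 CPM in the latter (Enl-WT 64.2 CPM, Enl-T1 52.1 CPM).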

How the results depend on the processing

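Results are log2 CPM ratios in nephron unless stated. No paired analysis was possible because each group is 1 library, and for the same reason no replicate could be left out. For Hoxb2, Enl-T1 over Enl-WT (0.35) became 0.76 with median-of-ratios scaling, 0.61 with mitochondrial, ribosomal protein and haemoglobin genes out of the total, 0.19 with cells thinned to 2000 UMIs, 0.57 with the stricter cell filter and 0.47 with lineages from marker UMIs. Enl-T1 TDI-11055 relative to Enl-T1 (1.03) became 0.80 with the stricter filter, 1.11 in female cells and 0.89 with lineages from marker UMIs. For Hoxb1 the latter comparison (2.64) became 2.04 in thinned and 2.99 in male cells, and for Hoxa2 (-0.41) it became -0.74 as the mean of each cell's own CPM and -1.13 in thinned cells. In stroma, Hoxd1 (-0.92 from 7 UMIs in all) reversed to 0.70 with lineages from marker UMIs. Of 2 alternatives chosen after seeing the data, leaving out the 2 unnamed nephron clusters gave 0.47 and 0.90 for the 2 Hoxb2 comparisons, and giving every library the Enl-WT mix of nephron classes gave 0.84 and 0.63, and, for Enl-T1 TDI-11055 relative to Enl-T1, 2.02 for Hoxb1 and -0.46 for Hoxd1 (0.30 in the report), which changes its sign. Removing doublets moved none of the 31 values computed so. Genes higher by 1.5-fold in Enl-T1 than in Enl-WT numbered 590, 719 and 601 in nephron, stroma and ureteric epithelium, but 1300, 1312 and 1158 with a minimum of 20 UMIs and 1560, 1489 and 1339 with median-of-ratios scaling; for Enl-T1 TDI-11055 relative to Enl-T1 the minimum gave 1372 against 766 in nephron and 1502 against 809 in ureteric epithelium. The causes were not tested. Low counts limit Hoxd1 and, outside the nephron, Hoxb1.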
